A study of Mus musculus with 9 samples.

Results

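The genes described here are 33 genes of the cell cycle and of DNA replication, chosen by symbol from known roles and all found among the 16231 genes of the count table. They fall into 3 groups by role: 10 genes of G1 (the D- and E-type cyclins Ccnd1, Ccnd2, Ccnd3, Ccne1 and Ccne2, the kinases Cdk2, Cdk4 and Cdk6, E2f1 and Myc), 10 genes of replication and nucleotide supply (Mcm2, Mcm3, Mcm4, Mcm5, Mcm6, Mcm7, Pcna, Rrm1, Rrm2 and Tyms) and 13 genes of G2 and mitosis (Mki67, Top2a, Ccna2, Ccnb1, Ccnb2, Cdk1, Birc5, Bub1, Cdc20, Aurka, Aurkb, Plk1 and Foxm1). Of the 33, 28 had enough counts to be tested: all 10 of G1, all 10 of replication and 8 of mitosis. Ccnb1, Birc5, Bub1, Aurkb and Foxm1 were too low, and their counts are given as they stand.

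A resting cell enters the cycle when mitogens raise the D-type cyclins, which activate Cdk4 and Cdk6. These kinases and cyclin E with Cdk2 phosphorylate the retinoblastoma protein family, which frees E2F factors to turn on the genes of DNA synthesis. The MCM complex of the products of Mcm2 to Mcm7 is loaded at origins in G1 and becomes the replicative helicase, and it can stay present in cells that do not divide. Genes of G2 and mitosis come on later, through the MuvB complex, B-MYB and FOXM1, whose target promoters often carry CCAAT boxes and a short element called CHR. Most hepatocytes of an adult liver and the neurons of an adult retina rest outside the cycle.

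The libraries came from 9 mouse samples labelled retina, 3 of each group: young mice, aged mice, and aged mice given EGCG (epigallocatechin gallate, a polyphenol of green tea), called treated below. The sources used here do not state the ages, strain or sex of the mice, the dose, how long it was given, or a vehicle. The series title concerns damage to the retinal pigment epithelium. The design text speaks of duplicates among the 9 samples without saying what was duplicated. No label ties a library to an animal of its own, and a p-value here therefore weighs a difference only against the spread between libraries of 1 group, which could be technical.

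The transcripts went against the tissue label. Sag, the rod arrestin gene, had 12 counts over the 3 young, 1 over the 3 aged and 2 over the 3 treated libraries. The rod transducin gene Gnat1 was higher, at group means from 4.74 CPM in the treated to 29.2 CPM in the young libraries. The 10 hepatocyte markers (Alb, Apoa1, Ttr and others) took 12.1 to 12.3% of the counts of young libraries, 13.8 to 13.9% of aged ones and 14.1 to 14.3% of treated ones. Libraries held 34240500 to 39922044 counts. A level is given in CPM, with the library total multiplied by its TMM factor, on which scale 1 count came to 0.0237 to 0.032 CPM and a floor of 3 counts to 0.0712 to 0.0961 CPM. Fold changes of tested genes are edgeR log2 fold changes, called at an adjusted p of 0.05 over 12747 genes.

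The mitosis genes were mostly lower than the G1 and replication genes. All 10 replication genes reached 1 CPM in every library, as did 8 of the 10 G1 genes, while 11 of the 13 mitosis genes stayed under 1 CPM in every library. The exceptions among the mitosis genes were Mki67 and Top2a, which passed 1 CPM in some libraries. The median over libraries was 13.4 CPM for the tested genes as a whole, 3.0 CPM for the tested members and 0.407 CPM for the tested mitosis genes. Per transcript length, as FPKM, Pcna was the highest member with a median of 21.9 over the 9 libraries, followed by Cdk4 at 16.9, Ccnd3 at 9.78, Mcm7 at 4.79 and Ccnd1 at 4.27. The ranges of Pcna (18.8 to 25.3 FPKM) and Cdk4 (14.2 to 20.3 FPKM) overlapped, and those of Mcm7 (3.04 to 5.84 FPKM) and Ccnd1 (3.56 to 12.8 FPKM) did too. The highest mitosis gene was Aurka at a median of 0.241 FPKM, above the lowest G1 genes Ccne1 at 0.218 and Ccne2 at 0.146, and Bub1 had no count in 5 of the 9 libraries. The median of these gene medians was 2.02 FPKM over the G1 genes, 1.2 over the replication genes and 0.102 over the mitosis genes.

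With age, 8 of the 28 tested members changed, 4 higher and 4 lower. That share of 28.6% stands beside 69.5% of all tested genes, of which 33.4% were higher and 36.1% lower. In treated against aged libraries 3 members were higher and 10 lower, 46.4% of the 28 against a background of 63.3% (31.8% higher and 31.5% lower). The median log2 fold change of the members was 0.01 with age, -0.41 in treated against aged and -0.31 in treated against young libraries, beside -0.02, 0.01 and 0.02 for all tested genes. In treated against young libraries 4 members were higher and 10 lower, 50% against 62.9% (30.8% higher and 32.1% lower). The 3 comparisons share libraries with each other, so their values are set side by side and not combined. In bulk RNA, fewer cells of a type and less of a transcript per cell cannot be told apart. Upper-quartile scaling raised the median log2 fold change of all genes from -0.02 to 0.09 with age and from 0.02 to 0.18 in treated against young libraries. Under that scaling 8 members were higher with age and 7 were higher in treated against young libraries, and the share of higher genes among all called genes went from 48.1 to 57.9% and from 49 to 65.6%. On FPKM, tested with limma, those shares were 66.8 to 67.2% and 66.9 to 67.2%. Without the second aged library 1 member was higher in treated against aged libraries, and without the third young or the second treated library 1 and 2 were higher in treated against young ones.

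**Figure D1:**
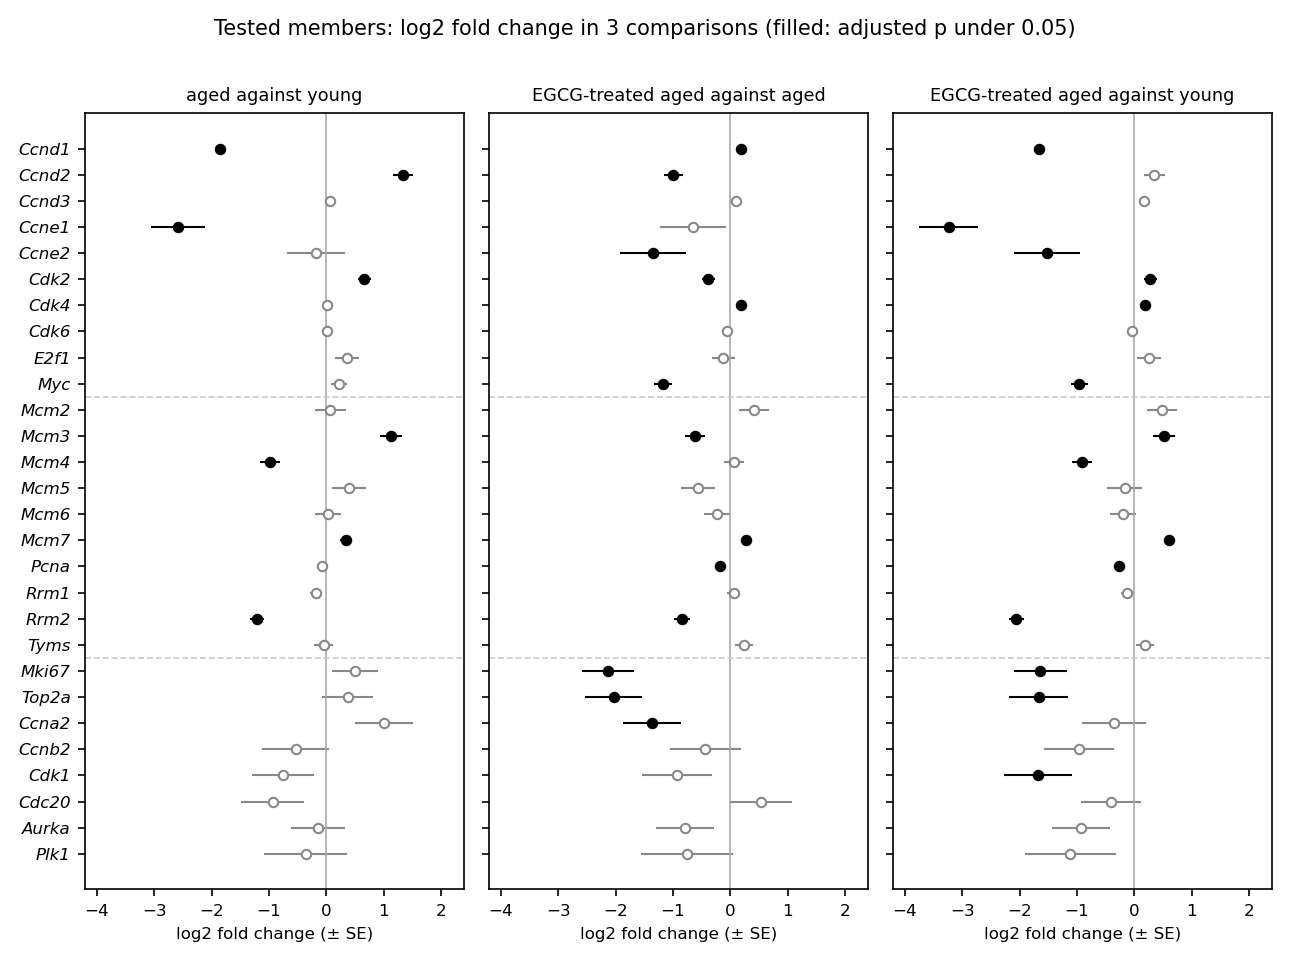
Log2 fold change (x axis, bars ± SE) of the 28 tested members (y axis, ordered by role) in each of the 3 comparisons, with filled points for genes past the adjusted p of 0.05. Ccnd1, Ccne1 and Rrm2 lie to the left with age, and Mki67, Top2a and Myc to the left in treated against aged libraries.

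Among the G1 genes, the D-type cyclins went different ways with age. Ccnd1 (chr7:144929931-144939925, minus strand, GENCODE M21 on GRCm38) encodes cyclin D1, which carries mitogen signals to Cdk4 and Cdk6. Its level was 46.1, 52.7 and 48.2 CPM in young libraries, 14.3, 12.8 and 13.7 CPM in aged and 15.2, 15.8 and 15.7 CPM in treated ones. Every young library lay far above every other. Ccnd1 fell 3.61-fold with age (log2 fold change -1.85, SE 0.068, edgeR adjusted p = 3.08e-26) and was lower in treated than in young libraries (-1.66). Treated libraries were slightly above aged ones (0.19, edgeR adjusted p = 0.0199), a call lost without the second aged library (0.15, adjusted p = 0.109) or the second treated one (0.19, adjusted p = 0.0508).

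Ccnd2 (chr6:127125162-127152193, minus strand), the gene of cyclin D2, stood at 2.27, 2.66 and 2.51 CPM in young libraries, 6.14, 6.01 and 6.70 CPM in aged and 2.70, 3.77 and 3.0 CPM in treated ones. The aged libraries were the high ones and overlapped neither of the other groups. Ccnd2 rose 2.53-fold with age (1.34, SE 0.176, edgeR adjusted p = 8.82e-09) and was lower in treated than in aged libraries (-0.99, SE 0.169, edgeR adjusted p = 2.43e-06). Treated against young it was at 0.35 with an adjusted p of 0.1, and at 0.51 with an adjusted p of 0.0145 under upper-quartile scaling. Ccnd3, the gene of cyclin D3, lay between 20.5 and 28.3 CPM in all 9 libraries, with groups that overlapped, and was not called in any comparison. Its log2 fold change with age was 0.06, and upper-quartile scaling gave 0.17 with age (adjusted p = 0.0463) and 0.33 in treated against young libraries (adjusted p = 0.000208). Bysl overlaps exons of Ccnd3 on the other strand in GENCODE and was called lower with age (-1.46) and higher in treated against aged libraries (0.70). Reads of the overlap could have been counted for either.

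Per length, Ccnd1 was the largest part of the D-type cyclin transcripts in the young libraries, and Ccnd3 in the aged and treated ones. Ccnd1 gave 58.0 ± 2.03% (SD, n = 3) of the summed FPKM of the 3 cyclins in young libraries, 26.0 ± 1.75% in aged and 28.1 ± 1.58% in treated ones. Ccnd3 gave 40.7 ± 2.12%, 68.5 ± 1.77% and 69.3 ± 1.33%. Ccnd2 was the smallest share throughout, at 1.34 ± 0.084%, 5.49 ± 0.12% and 2.59 ± 0.255%. The 3 genes together came to 71.2 to 80.4 CPM in the young libraries, 42.6 to 45.6 CPM in the aged and 41.4 to 47.8 CPM in the treated.

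**Figure D2:**
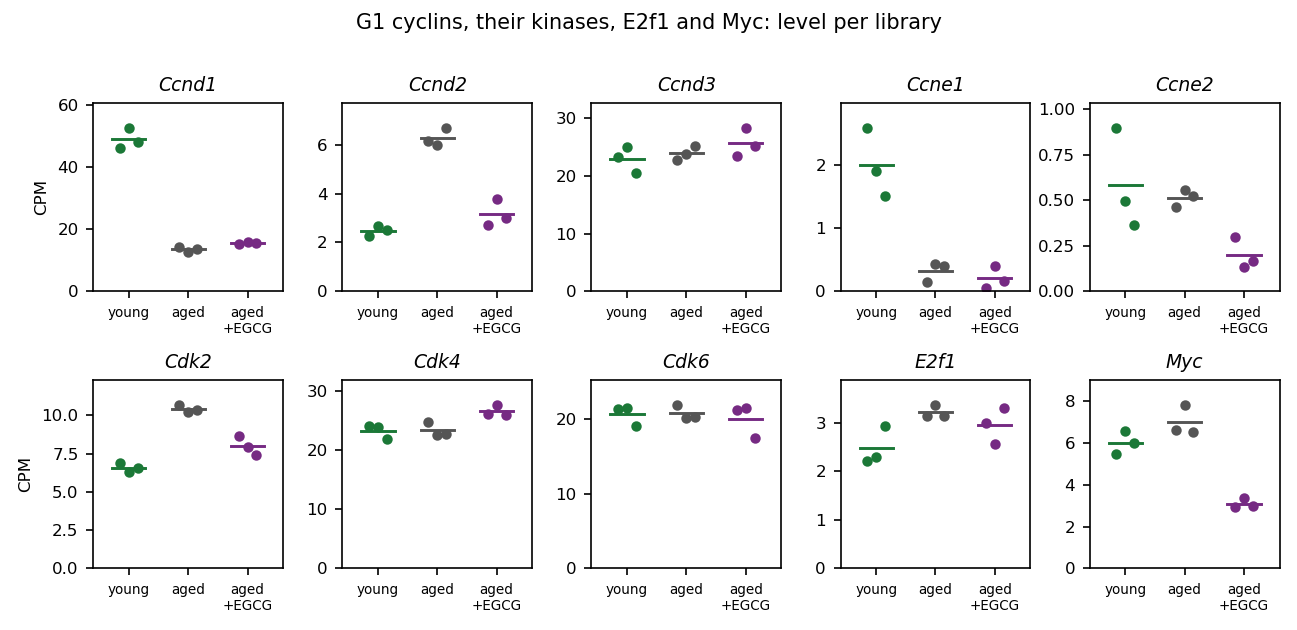
Level in CPM (y axis) of the 10 G1 genes in each library (points) with the group mean (line) for young, aged and EGCG-treated aged libraries. Ccnd1 was 12.8 to 15.8 CPM in the aged and treated libraries against 46.1 to 52.7 CPM in the young, and Myc was lowest in the 3 treated libraries.

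The E-type cyclins, partners of Cdk2 at the entry into S phase, were both low. Ccne1 (chr7:38097984-38107534, minus strand) had 81, 62 and 50 counts in young libraries, 6, 17 and 17 in aged and 2, 15 and 6 in treated ones. The young libraries were above all others, and the aged and treated ones overlapped. Ccne1 was 6.01-fold lower with age (-2.59, SE 0.473, edgeR adjusted p = 6.56e-06) and 9.43-fold lower in treated than in young libraries (-3.24, SE 0.509, edgeR adjusted p = 4.78e-07). Treated against aged it was at -0.65 (adjusted p = 0.331).

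Ccne2 had 28, 16 and 12 counts in young libraries, 18, 22 and 22 in aged and 11, 5 and 6 in treated ones, where it was lowest without overlapping the others. It was lower in treated than in aged libraries (-1.34, SE 0.573, edgeR adjusted p = 0.039) and than in young ones (-1.52, SE 0.577, edgeR adjusted p = 0.0204). With so few counts both calls were fragile. Against aged libraries the call was lost without any 1 of the 3 aged libraries (-1.41, -1.28 and -1.33) and without the second treated library (-1.12) or the third (-1.22). Against young libraries it was lost without the first young library (-1.08), the second treated (-1.31) or the third treated one (-1.41).

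Of the kinases, Cdk2 (chr10:128697939-128705031, minus strand), which acts with cyclins E and A, was at 6.89, 6.30 and 6.54 CPM in young libraries, 10.7, 10.2 and 10.3 CPM in aged and 8.64, 7.92 and 7.39 CPM in treated ones. The 3 groups did not overlap, and the treated libraries lay between the other two. Cdk2 rose with age (0.66, SE 0.112, edgeR adjusted p = 1.7e-06), and it was lower in treated than in aged libraries (-0.38, SE 0.109, edgeR adjusted p = 0.00235). It was called higher in treated than in young libraries (0.28, adjusted p = 0.0318), a call lost without the second young library (0.25), the third young (0.27), the first treated (0.22) or the second treated one (0.28 to 0.29). Pmel, which GENCODE places against Cdk2 on the other strand, was not called.

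Cdk4 and Cdk6, the partners of the D-type cyclins, varied little. Cdk4 was 21.9 to 24.1 CPM in young libraries, 22.7 to 24.8 CPM in aged and 26.0 to 27.7 CPM in treated ones. It was called higher in treated libraries than in aged (0.18, adjusted p = 0.015) and young ones (0.19, adjusted p = 0.0122). Tspan31, on the other strand beside Cdk4 and more abundant, was called higher in treated than in aged libraries (0.36) and lower in treated than in young ones (-0.08), and the sources used here do not state whether counting used strand. The call against aged libraries was lost without the second aged library, the third aged one or the second treated one (0.16 each), and the call against young ones without the third young library (0.15) or the second treated one (0.16). With a trend in gene length removed, Cdk4 was at -0.04 against aged and 0.08 against young libraries (adjusted p = 0.329), called in neither. Cdk6 was 17.5 to 21.9 CPM over all 9 libraries and was not called in any comparison, with log2 fold changes of 0.01, -0.05 and -0.04. As one of the longest members it was called under length correction, at -0.20 with age and 0.24 in treated against aged libraries.

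E2f1, a transcription factor released when the retinoblastoma protein is phosphorylated, lay between 2.21 and 3.36 CPM and was not called. Its log2 fold change with age was 0.37 (adjusted p = 0.113), and 0.47 (adjusted p = 0.042) under upper-quartile scaling. Myc (chr15:61985391-61990374, plus strand), the growth-promoting factor that responds early to mitogens, was at 5.48, 6.58 and 6.0 CPM in young libraries, 6.61, 7.83 and 6.55 CPM in aged and 2.94, 3.39 and 2.98 CPM in treated ones. All 3 treated libraries were below all 6 others. Myc was 2.25-fold lower in treated than in aged libraries (-1.17, SE 0.149, edgeR adjusted p = 5.59e-09) and lower than in young ones (-0.95, SE 0.153, edgeR adjusted p = 6.43e-07). With age it was at 0.22 (adjusted p = 0.172), a value that upper-quartile scaling put at 0.32 (adjusted p = 0.0416).

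By count, 2 G1 genes were higher and 2 lower with age, 2 were higher and 4 lower in treated against aged libraries, and 2 were higher and 4 lower in treated against young ones. The shares called were 40%, 60% and 60%, beside 69.5%, 63.3% and 62.9% of all genes. The median log2 fold changes of the 10 genes were 0.04, -0.25 and 0.06. Leaving out the second treated library left 3 G1 calls in place of 6 in each of the comparisons with treated libraries, and leaving out the second aged library left 3 against aged libraries. No G1 gene was then called higher (0 of 10) in these fits, nor against young libraries without the third young one, and without the third aged library 1 was higher against aged ones.

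The CDK inhibitors, which hold cyclin-dependent kinases back, were called in 4 of 7 tested genes with age, all 4 higher, which is 57.1% beside 69.5% of all genes called and 33.4% called higher. Of these 4, Cdkn1c and Cdkn2b were not called without the third young library (0.59, adjusted p = 0.173, and 2.20, adjusted p = 0.0671) or the third aged one (0.82, adjusted p = 0.0825, and 1.68, adjusted p = 0.175). Cdkn1c also lost its call without the first aged library (0.87) or the second (0.76), with no filter (0.81) and with the replicate block (0.84), and Cdkn2b without the second young library (2.22) and in limma on log2(FPKM + 1) (0.19). In treated against aged libraries 2 were higher and 2 lower, and in treated against young ones 4 higher and 0 lower (57.1% in each, beside 63.3% and 62.9%). Against aged libraries the call of Cdkn2d, higher, was lost with RLE factors (0.67, adjusted p = 0.0531) and without any 1 aged or treated library. Cdkn1a, the gene of p21, rose with age from 7.5 ± 1.0 to 11.6 ± 0.48 CPM (SD, n = 3; 0.63, edgeR adjusted p = 6.58e-06) and was 8.21 ± 1.1 CPM in the treated libraries, lower than in the aged (-0.50, edgeR adjusted p = 0.000173). Cdkn1b, the gene of p27, was higher in treated than in aged libraries (0.36, edgeR adjusted p = 0.000644) and young ones (0.46, edgeR adjusted p = 3.32e-05). Cdkn2a, the gene of p16 and p19ARF, lay under 1 CPM in each group mean and is named here because of its values. It had 5 counts over the 3 young libraries, all in 1 of them, 113 over the aged and 58 over the treated. The young libraries alone could not have passed the filter. Its log2 fold changes of 4.10 with age and 3.28 in treated against young libraries therefore describe the values for which it was picked. It is also among the inhibitors counted as higher in both of those comparisons, so these counts follow in part from the filter. Against aged libraries it was at -0.82 (adjusted p = 0.176), and without the third treated library at -1.71 (adjusted p = 0.0214).

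Among the other genes of the retinoblastoma and E2F families and of the MuvB complex, 2 of 18 tested were higher and 6 lower with age, 4 higher and 4 lower in treated against aged libraries, and 4 higher and 9 lower in treated against young ones (44.4%, 44.4% and 72.2% called, beside 69.5%, 63.3% and 62.9% of all genes). E2f4, whose product acts largely in repression in resting cells, and its partner gene Tfdp1 fell with age. They went from 30.3 to 17.6 CPM (-0.79) and from 27 to 16.8 CPM (-0.69). E2f2, an activating E2F gene, was 0.376 CPM in young libraries, 0.482 CPM in aged and 1.74 CPM in treated ones, and was higher in treated than in aged ones (1.85, edgeR adjusted p = 0.00014). E2f8, a repressing E2F gene, was lower in treated than in aged (-0.74, edgeR adjusted p = 0.00576) and young libraries (-1.28, edgeR adjusted p = 6.44e-06).

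Of 14 tested genes of other cyclins and CDK regulators, 2 were higher and 2 lower with age, 5 higher and 2 lower in treated against aged libraries, and 3 higher and 2 lower in treated against young ones (28.6%, 50% and 35.7% called, beside 69.5%, 63.3% and 62.9%). Ccng2, a cyclin gene known to be induced in growth arrest, rose from 3.37 to 15 CPM with age (2.15, edgeR adjusted p = 5.03e-20) and was 13.1 CPM in the treated libraries. Cdk7, the CDK-activating kinase gene, was 26.9 CPM in young libraries, 8.81 CPM in aged and 15.2 CPM in treated ones (-1.61 with age and 0.79 against aged). Wee1, whose kinase restrains Cdk1, was 6.2 and 5.28 CPM in young and aged libraries and 1.23 CPM in the treated ones, lower than in the aged (-2.10, edgeR adjusted p = 1.86e-12). In the network of MYC and MAX, with 11 tested genes, 6 were higher and 3 lower with age and 4 higher and 7 lower in treated against aged libraries (81.8% and 100% called, beside 69.5% and 63.3%). Max itself fell from 37.1 to 22.7 CPM with age (-0.71) and was 18.7 CPM in the treated libraries (-0.28 against aged). Mlxipl, the gene of the carbohydrate-responsive factor ChREBP, was 204 and 215 CPM in young and aged libraries and 418 CPM in the treated (0.96 against aged, edgeR adjusted p = 7.79e-30).

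The 10 replication genes summed to 83.5 to 89.7 CPM in young libraries, 75.5 to 79.7 CPM in aged and 69.9 to 78.6 CPM in treated ones, so that the young libraries lay above the others and aged and treated ones overlapped. That order rests on the TMM factors. As a share of all counts the sums were 0.00766 to 0.00825%, 0.00797 to 0.00839% and 0.00731 to 0.00807%, and all groups overlapped. With age 2 of the 10 were higher (Mcm3 and Mcm7) and 2 lower (Mcm4 and Rrm2), 40% called beside 69.5% of all genes. In treated against aged libraries 1 was higher and 3 lower (40% called beside 63.3%), and in treated against young ones 2 were higher and 3 lower (50% beside 62.9%). Median log2 fold changes of the 10 genes were -0.01, -0.06 and -0.14. Without the second treated library 2 were higher against aged libraries, and without the third young or the first treated library 1 was higher against young ones. Mcm3, Mcm7 and Rrm2 differed in all 3 comparisons, and the 250 bases before the starts of Rrm2 and Mcm3, which went opposite ways with age, are shown (RefSeq, GRCm38.p6, each on its gene's strand, chr12:24708004-24708253 for Rrm2, plus strand, and chr1:20820313-20820562 for Mcm3, minus strand). Capitals mark each match, on either strand, to an E2F word (TTTCCCGC, TTTCGCGC, TTTGCCGC or TTTGGCGC), to a CHR word (TTTGAA or TTCGAA) or to CCAAT.

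Rrm2: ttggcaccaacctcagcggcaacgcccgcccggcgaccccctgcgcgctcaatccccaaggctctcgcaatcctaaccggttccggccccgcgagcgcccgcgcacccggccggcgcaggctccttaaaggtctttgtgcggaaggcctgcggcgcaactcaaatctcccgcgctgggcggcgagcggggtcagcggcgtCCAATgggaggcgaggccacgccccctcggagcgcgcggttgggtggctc
Mcm3: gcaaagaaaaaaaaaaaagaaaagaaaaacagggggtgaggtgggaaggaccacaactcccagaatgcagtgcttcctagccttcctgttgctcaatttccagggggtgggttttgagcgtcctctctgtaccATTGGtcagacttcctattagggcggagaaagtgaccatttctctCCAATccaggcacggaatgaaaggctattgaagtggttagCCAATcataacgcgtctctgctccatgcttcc

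Both windows matched CCAAT, once in Rrm2 and 3 times in Mcm3, and held no match to the E2F or CHR words. The last bases of the Rrm2 window lie within the first exon of Rrm2 in GENCODE. A window was found for 25 of the 33 members, 27 windows in all because some genes have more than 1. Not found were Ccnd1, Ccnd2, Ccne2, Myc, Mcm4, Ccna2, Aurkb and Foxm1. CCAAT stood in 9 of 10 replication windows, 9 of 10 mitosis windows and 2 of 7 G1 windows, beside 33.8% of 32851 RefSeq windows of that length. An E2F word stood in 3 replication windows (Mcm5, Mcm6 and Mcm7), 1 mitosis window and 1 G1 window (Cdk2), beside 1.86% of all. These matches describe letters only. CCAAT and the E2F and CHR words do not contain one another, though matches on opposite strands can overlap, and TTCGAA reads the same on both strands.

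Rrm2 (chr12:24708241-24714146, plus strand), the regulated subunit of ribonucleotide reductase, which makes deoxyribonucleotides, was at 15.9, 13.2 and 16.1 CPM in young libraries, 7.02, 5.86 and 6.60 CPM in aged and 4.14, 2.96 and 3.75 CPM in treated ones. The 3 groups were wholly apart, with young highest and treated lowest. Rrm2 fell 2.32-fold with age (-1.21, SE 0.12, edgeR adjusted p = 5.67e-12). It was lower in treated than in aged libraries (-0.84, SE 0.134, edgeR adjusted p = 6.6e-07) and 4.16-fold lower than in young ones (-2.06, SE 0.129, edgeR adjusted p = 3.99e-18). Rrm1, the large subunit of the same enzyme, lay between 8.23 and 10.8 CPM in all libraries and was not called in any comparison, though without the third young library it was called lower with age (-0.27, adjusted p = 0.0395). Tyms, which makes thymidylate, lay between 4.52 and 7.17 CPM and was not called either. Rrm2b, the p53-induced small subunit of the pathway list, fell from 5.19 to 2.45 CPM with age (-1.08, edgeR adjusted p = 5.8e-06) and was 2.71 CPM in the treated libraries.

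The 6 genes of the MCM helicase, whose products act in 1 complex, differed from one another. Mcm3 (chr1:20802968-20820312, minus strand) was at 2.18, 2.78 and 1.97 CPM in young libraries, 5.27, 5.05 and 4.89 CPM in aged and 3.63, 3.53 and 2.78 CPM in treated ones. Aged libraries were above all others, and the lowest treated library met the highest young one at 2.78 CPM. Mcm3 rose 2.19-fold with age (1.13, SE 0.19, edgeR adjusted p = 1.38e-06) and was lower in treated than in aged libraries (-0.61, SE 0.181, edgeR adjusted p = 0.00321). Its call in treated against young libraries (0.52, adjusted p = 0.0196) was lost without the first young library (0.48), the third young (0.41), the first treated (0.45) or the second treated one (0.47).

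Mcm4 (chr16:15623897-15637400, minus strand) was at 7.05, 5.96 and 8.33 CPM in young libraries, 3.36, 4.09 and 3.42 CPM in aged and 3.90, 2.71 and 4.78 CPM in treated ones. The young libraries were the high ones, and aged and treated ones overlapped. Mcm4 fell 1.96-fold with age (-0.97, SE 0.173, edgeR adjusted p = 3.97e-06), and was at -0.91 in treated against young (edgeR adjusted p = 1.59e-05) and 0.07 in treated against aged libraries (adjusted p = 0.761). Mcm7 (chr5:138164583-138172422, minus strand) was at 9.61, 11.2 and 9.72 CPM in young libraries, 12.5, 13.1 and 13.1 CPM in aged and 15.5, 16.2 and 15.2 CPM in treated ones, with no overlap. It was higher with age (0.34, edgeR adjusted p = 0.00152), in treated against aged (0.27, edgeR adjusted p = 0.00793) and in treated against young libraries (0.61, edgeR adjusted p = 2.51e-07). Ap4m1 and the more abundant Cops6 lie on the other strand beside Mcm7 in GENCODE. Ap4m1 was at 0.69, -0.45 and 0.24 and Cops6 at -0.22, 0.20 and -0.02 in these 3 comparisons, and reads of overlapping genes could have been counted for either.

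Mcm2, Mcm5 and Mcm6 were not called in any comparison. Mcm2 was 1.76 to 3.43 CPM in young libraries, 2.45 to 2.56 CPM in aged and 1.84 to 5.09 CPM in treated ones, so that its spread was mostly within the treated group. Without the second treated library it was called higher against aged (0.70 to 0.71, adjusted p = 0.0154) and young libraries (0.77, adjusted p = 0.00922), and without the first young library against young ones (0.83, adjusted p = 0.0136). Mcm5 ranged from 1.08 to 2.58 CPM, with a log2 fold change of 0.39 with age that was 0.83 without the third young library (adjusted p = 0.0245). Mcm6 ranged from 2.07 to 2.66 CPM. The 6 genes summed to 25.6 to 26.5 CPM in young libraries, 27.9 to 29.8 CPM in aged and 27.9 to 31.6 CPM in treated ones. The young sums lay below the others, and aged and treated ones overlapped. As a share of all counts the sums were 0.00235 to 0.00244%, 0.00292 to 0.00314% and 0.0029 to 0.00325%, so the size of that gap rests on the TMM factors. Singly, Mcm3, Mcm4 and Mcm7 differed.

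Pcna, the sliding clamp of DNA polymerases, was at 29.5, 29.4 and 32.1 CPM in young libraries, 29.9, 30.4 and 26.2 CPM in aged and 22.7, 27.0 and 26.4 CPM in treated ones. The treated libraries were below the young ones and overlapped the aged. It was called lower in treated than in young libraries (-0.26, edgeR adjusted p = 0.00138) and in treated than in aged ones (-0.18, edgeR adjusted p = 0.0205). Upper-quartile scaling ended both calls (-0.09 and -0.12), and the call against aged libraries was also lost without the first aged library (-0.15), the second aged (-0.14) or the first treated one (-0.11).

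**Figure D3:**
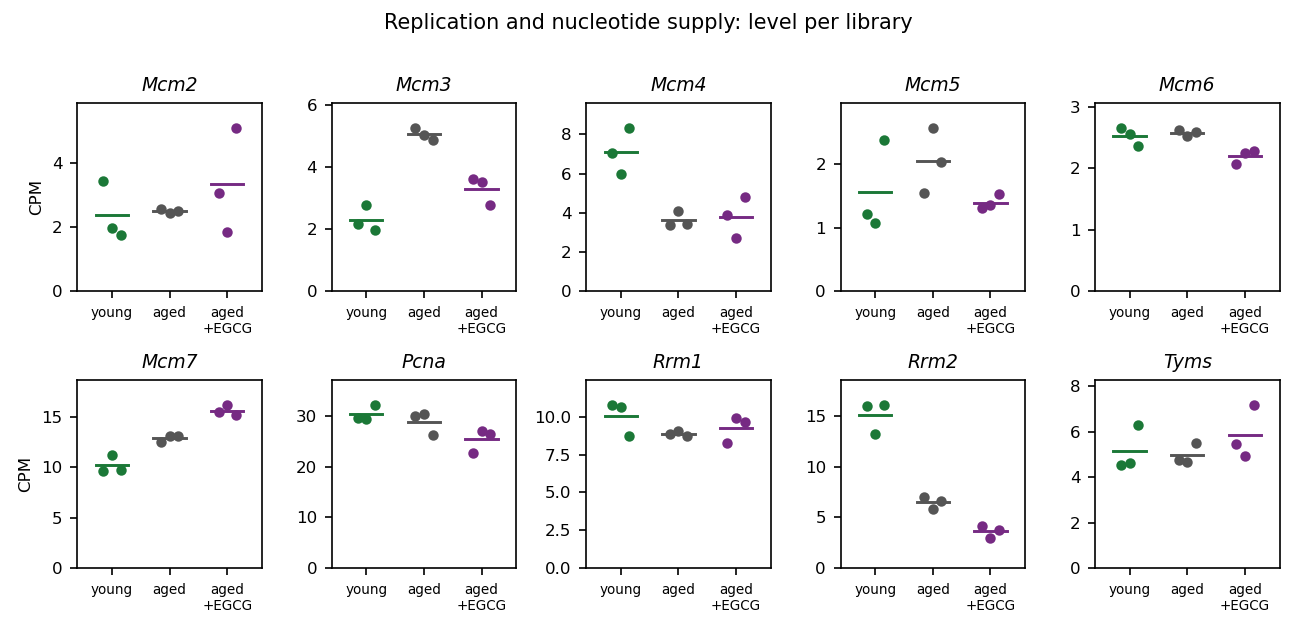
Level in CPM (y axis) of the 10 replication genes in each library (points) with the group mean (line), for young, aged and EGCG-treated aged libraries. Rrm2 stood at 13.2 to 16.1 CPM in young, 5.86 to 7.02 CPM in aged and 2.96 to 4.14 CPM in treated libraries, while Rrm1 and Tyms overlapped between groups.

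Of the genes that license and fire origins, 16 were tested: 3 were higher and 6 lower with age, 6 higher and 3 lower in treated against aged libraries, and 1 higher and 1 lower in treated against young ones (56.2%, 56.2% and 12.5% called, beside 69.5%, 63.3% and 62.9%). Mcm10, a replication initiation factor outside the MCM ring, was 46.5 CPM in young libraries, 72.1 CPM in aged and 44.1 CPM in treated ones (0.63 with age, edgeR adjusted p = 9.85e-15, and -0.71 against aged, edgeR adjusted p = 3.12e-16). Cdt1, the licensing factor that loads MCM, was 1.4, 3.73 and 1.73 CPM (1.42 with age, edgeR adjusted p = 2.62e-06, and -1.11 against aged, edgeR adjusted p = 8.79e-05). Orc3, a subunit of the origin recognition complex, was 22.6, 15.5 and 22.7 CPM (-0.54 with age and 0.55 against aged).

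Of 28 tested genes of the replication fork and nucleotide enzymes, 13 were higher and 6 lower with age, 7 higher and 6 lower in treated against aged libraries, and 11 higher and 5 lower in treated against young ones. The shares called were 67.9%, 46.4% and 57.1%, beside 69.5%, 63.3% and 62.9% of all genes. Lig1, the ligase that joins Okazaki fragments, rose from 1.39 to 3.56 CPM with age (1.35, edgeR adjusted p = 1.45e-05) and was 1.82 CPM in the treated libraries (-0.97 against aged, edgeR adjusted p = 0.000828). Fen1, the nuclease that trims those fragments, went from 6.24 to 2.44 CPM with age (-1.35) and was 4.45 CPM in the treated libraries (0.87 against aged). Pola1, a subunit of the priming polymerase, was 2.44, 4.69 and 2.3 CPM (0.95 with age and -1.03 against aged). Tk1, the thymidine kinase of S phase, was 10.5, 14.4 and 18.4 CPM in young, aged and treated libraries, higher with age (0.47) and in treated against young ones (0.81).

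The mitosis genes were low in all groups. None of the 8 tested was called with age by edgeR (0 beside 69.5% of all genes), and 0 had an unadjusted p under 0.05. DESeq2 called 0 of these 8, and its 1 call, lower, was among the 5 genes below the filter. Upper-quartile scaling and the limma fits of FPKM called 1 of the 8 higher with age, Ccna2. In treated against aged libraries 3 were lower (Mki67, Top2a and Ccna2) and in treated against young ones 3 (Mki67, Top2a and Cdk1), with none higher. That is 37.5% of the 8 in each, beside 31.5% and 32.1% of all genes called lower. The median log2 fold changes of the 8 were -0.25 with age, -0.86 in treated against aged and -1.04 in treated against young libraries, beside -0.02, 0.01 and 0.02 for all tested genes. Leaving out 1 library, with genes filtered anew, moved these counts: 1 gene was called lower with age without the third young, the third aged or any 1 treated library. Against aged libraries 5 were lower without the first or the third young or the first or the second aged library, and 6 without the third treated one, while 1 was higher without the third aged or the second treated one. Against young libraries 5 were lower without the third young or the third treated library, and 6 without the first aged, the second aged or the second treated one. Summed over all 13 genes, counts were 183 to 211 in young libraries, 194 to 287 in aged and 92 to 102 in treated ones. As CPM these sums were 5.69 to 6.52, 5.01 to 6.81 and 2.51 to 2.84, so that the treated libraries lay below the others and young and aged ones overlapped. Without Mki67 and Top2a the sums were 3.81 to 4.51, 2.74 to 4.11 and 1.79 to 2.36 CPM.

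Mki67 and Top2a gave the most counts of the 13 genes, and their promoters carry the CHR and CCAAT words of late cell cycle genes. The 250 bases before their RefSeq starts are shown as above (GRCm38.p6, chr7:135716380-135716629 for Mki67 and chr11:99024190-99024439 for Top2a, both on the minus strand), with the same words in capitals.

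Mki67: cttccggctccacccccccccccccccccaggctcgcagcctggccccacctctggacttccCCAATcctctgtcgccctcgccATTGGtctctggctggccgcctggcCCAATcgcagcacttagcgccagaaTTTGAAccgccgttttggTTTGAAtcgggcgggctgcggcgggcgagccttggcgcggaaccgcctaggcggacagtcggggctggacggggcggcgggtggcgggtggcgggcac
Top2a: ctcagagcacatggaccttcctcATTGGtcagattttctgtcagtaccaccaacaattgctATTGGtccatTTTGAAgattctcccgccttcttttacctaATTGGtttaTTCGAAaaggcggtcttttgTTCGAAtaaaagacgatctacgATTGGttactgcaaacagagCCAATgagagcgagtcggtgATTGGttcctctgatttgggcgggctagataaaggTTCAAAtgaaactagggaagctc

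The Mki67 window matched CHR words 2 times and CCAAT 3 times, and the Top2a window 4 and 6 times. CHR words stood in 5 of 10 mitosis windows, 2 of 10 replication windows and 0 of 7 G1 windows, beside 17.1% of all RefSeq windows.

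Mki67 (chr7:135689784-135716361, minus strand) encodes Ki-67, a coat protein of mitotic chromosomes used as a marker of cycling cells. It had 19, 51 and 35 counts in young libraries, 51, 75 and 58 in aged and 12, 22 and 4 in treated ones. The treated libraries were below every aged library, while the lowest young library, at 19 counts or 0.609 CPM, lay beside the highest treated one, at 22 counts or 0.597 CPM. Mki67 was 4.38-fold lower in treated than in aged libraries (-2.13, SE 0.448, edgeR adjusted p = 6.86e-05) and lower than in young ones (-1.64, SE 0.463, edgeR adjusted p = 0.00213). The call against young libraries was lost in limma on log2(FPKM + 1) (-0.08, adjusted p = 0.0882). With age Mki67 was at 0.50 (edgeR adjusted p = 0.271). Mki67 is among the longest members, and with the length trend removed it was at -1.88 in treated against aged libraries (adjusted p = 0.000338).

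Top2a (chr11:98992943-99024189, minus strand), the topoisomerase that untangles replicated chromosomes, had 45, 14 and 25 counts in young libraries, 37, 44 and 56 in aged and 3, 14 and 13 in treated ones. Aged libraries were above all treated ones, and 1 young library tied with the highest treated library at 14 counts. Top2a was 4.10-fold lower in treated than in aged libraries (-2.03, SE 0.499, edgeR adjusted p = 0.000499) and lower than in young ones (-1.66, SE 0.515, edgeR adjusted p = 0.0048). The call against young libraries was lost without the first young library (-1.11, adjusted p = 0.096) and in limma on log2(FPKM + 1) (-0.13, adjusted p = 0.062). With age Top2a was at 0.37 (adjusted p = 0.463).

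Ccna2, the gene of cyclin A2, which acts in S phase and G2, had 12, 11 and 12 counts in young libraries, 19, 28 and 42 in aged and 10, 9 and 12 in treated ones. Aged libraries were the high ones. It was lower in treated than in aged libraries (-1.36, SE 0.511, edgeR adjusted p = 0.0191), a call lost without the third aged library (-1.07, adjusted p = 0.134), the first treated (-1.33) or the second treated one (-1.26). With age it was at 1.01 (adjusted p = 0.0717), and at 1.11 to 1.12 under upper-quartile scaling (adjusted p = 0.0471). Exosc9, on the other strand beside Ccna2, was called lower with age (-0.55) and higher in treated against aged libraries (0.69).

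Cdk1, the kinase that drives entry into mitosis, had 21, 14 and 25 counts in young libraries, 19, 11 and 14 in aged and 10, 8 and 3 in treated ones. All treated libraries were below all others. It was called lower in treated than in young libraries (-1.68, SE 0.591, edgeR adjusted p = 0.0125), a call lost without the third young library (-1.51) or the third treated one (-1.33), and was at -0.92 against aged ones (adjusted p = 0.184). Aurka, the spindle pole kinase gene, had 20, 22 and 17 counts in young libraries, 20, 21 and 26 in aged and 11, 12 and 12 in treated ones. Its treated libraries were likewise the lowest, but it was not called by edgeR, at -0.79 against aged (adjusted p = 0.167) and -0.93 against young ones (adjusted p = 0.107). Limma on log2(FPKM + 1) called it lower against aged (-0.13, adjusted p = 0.00734) and young libraries (-0.12, adjusted p = 0.0117). With log2(FPKM + 0.1) it was called lower in both as well (adjusted p = 0.00718 and 0.0107).

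Ccnb2, Cdc20 and Plk1 were not called in any comparison. Ccnb2, a B-type cyclin gene, had 7, 21 and 19 counts in young libraries, 22, 10 and 8 in aged and 8, 13 and 6 in treated ones. Cdc20, an activator of the anaphase-promoting complex, had 22, 18 and 15, then 7, 10 and 19, then 22, 12 and 13. By counts all groups of both genes overlapped, while as CPM the highest aged Cdc20 library (0.451) lay just below the lowest young one (0.454). Elovl1, on the other strand against Cdc20, was far more abundant (42.8, 37.4 and 53.6 CPM in young, aged and treated libraries). Plk1, the polo-like kinase gene, had 9, 13 and 11 counts in young libraries, 2, 20 and 10 in aged and 0, 2 and 15 in treated ones. The third treated library held nearly all counts of its group, and without it Plk1 was called lower against aged (-3.13, adjusted p = 0.0198) and young libraries (-3.49, adjusted p = 0.00836).

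The 5 mitosis genes below the filter had at most 23 counts in a library. Foxm1 (chr6:128362967-128376146, plus strand), the transcription factor of the late cell cycle genes, had 7, 13 and 9 counts in young libraries, 9, 8 and 23 in aged and 1, 1 and 1 in treated ones. Each treated library was below every other and under the floor of 3 counts, and the third aged library held 23 of the 40 aged counts. The ratio of treated to aged, from 3 against 40 counts, was 0.0825 with an exact 95% interval of 0.0163 to 0.259 that covers counting error only, and the ratio of treated to young was 0.0912 (0.0178 to 0.294). Aurkb, the kinase of the chromosomal passenger complex, had 5, 13 and 2 counts, then 5, 4 and 15, then 0, 1 and 1. Its treated libraries were also the lowest and under that floor, with a ratio to aged of 0.0917 (0.0105 to 0.369) from 2 against 24 counts. Of those 24, the third aged library held 15. In a fit with no filter on low counts both genes were called lower in treated than in aged libraries, Foxm1 at -3.42 (edgeR adjusted p = 0.00217) and Aurkb at -3.20 (edgeR adjusted p = 0.0211).

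Ccnb1, the gene of cyclin B1, had 10, 16 and 8 counts in young libraries, 2, 1 and 6 in aged and 1, 5 and 4 in treated ones, with the young libraries the highest. Its ratio of aged to young was 0.212 (exact 95% interval 0.0895 to 0.452), and without the filter it was called lower with age (-2.21, edgeR adjusted p = 0.0367). Birc5, the survivin gene, had 5, 5 and 9, then 1, 2 and 10, then 14, 3 and 16 counts. These groups overlapped, the ratio of treated to aged was 2.79 (1.43 to 5.78), and the fit with no filter did not call it (adjusted p = 0.146). Bub1, a checkpoint kinase gene, had 1, 0 and 1, then 0, 2 and 0, then 0, 0 and 2 counts, under the floor of 3 in every library, and no ratio was taken.

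**Figure D4:**
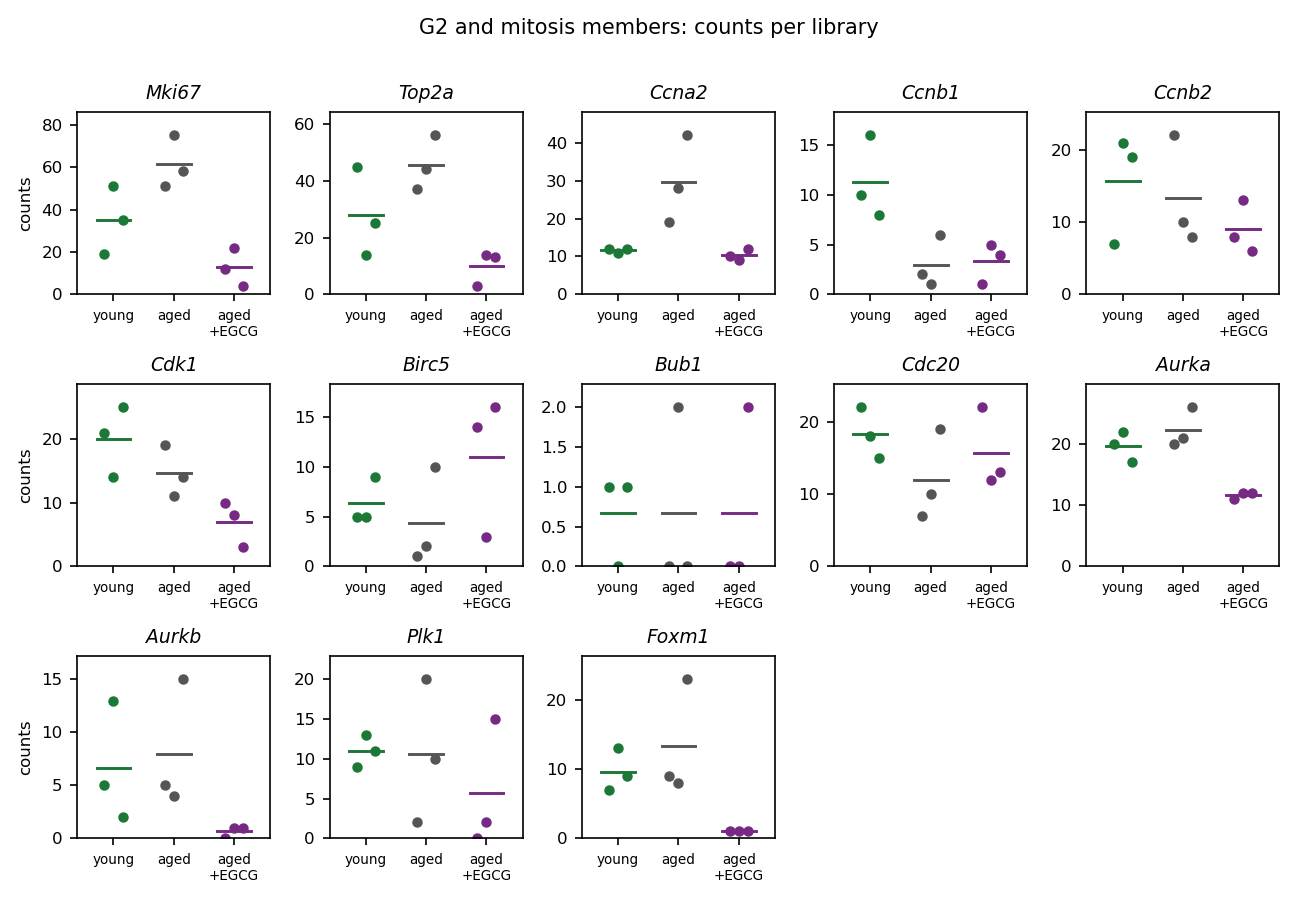
Raw counts (y axis) of the 13 G2 and mitosis genes in each young, aged and EGCG-treated aged library (points), with the group mean as a line. Mki67 and Top2a had up to 75 and 56 counts in aged libraries and at most 22 and 14 in treated ones, and Foxm1 had 1 count in each treated library.

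Other genes of mitosis did not all move with these members. Of 18 tested genes of the kinetochore, spindle and checkpoint, 2 were higher and 4 lower with age, 3 higher and 4 lower in treated against aged libraries, and 1 higher and 4 lower in treated against young ones (33.3%, 38.9% and 27.8% called, beside 69.5%, 63.3% and 62.9%). Ect2, which starts the contractile ring of cytokinesis, was 3.56 CPM in young libraries, 0.909 CPM in aged and 0.418 CPM in treated ones. It fell with age (-1.97, edgeR adjusted p = 3.35e-07) and was lower in treated than in aged libraries (-1.11, edgeR adjusted p = 0.00857), a call lost without the third treated library (-0.73, adjusted p = 0.0874). Spc24, a kinetochore gene, was 8.88, 5.33 and 12 CPM (-0.74 with age and 1.17 against aged). Mad1l1, a checkpoint gene, fell with age from 20.6 to 8.11 CPM (-1.34) and was 11.7 CPM in the treated libraries (0.53 against aged). Of 25 tested genes of the anaphase-promoting complex, cohesin and condensin, 6 were higher and 8 lower with age, and 5 higher and 9 lower in treated against aged libraries (56% called in each, beside 69.5% and 63.3%). Stag2, a cohesin gene, was 51.6 CPM in young libraries, 77.7 CPM in aged and 52.3 CPM in treated ones (0.59 with age and -0.57 against aged).

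Over the 8 lists of related genes outside the members, 137 genes were tested. With age 38 were higher and 35 lower (53.3%), in treated against aged libraries 36 and 37 (53.3%), and in treated against young ones 32 and 32 (46.7%), shares below the backgrounds of 69.5%, 63.3% and 62.9% for all genes. Their median log2 fold changes were 0.07, 0.03 and 0.01.

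Markers of other cell types also differed between the groups. Of all tested genes, 33.4% were called higher and 36.1% lower with age. In treated against aged libraries these shares were 31.8% and 31.5%. The 12 macrophage markers summed to 139.7 to 142.5 CPM in young libraries, 774.6 to 792.3 CPM in aged and 295.4 to 304.3 CPM in treated ones. All 12 were higher with age and all 12 lower in treated against aged libraries. The 10 endothelial markers summed to 119.7 to 126.6, 256.1 to 273.9 and 99.8 to 107.4 CPM, with 8 higher with age and 10 lower in treated against aged libraries. The 10 markers of stellate cells and fibroblasts summed to 115.3 to 130.2, 430.1 to 437 and 181.4 to 192.5 CPM, with 9 higher with age and 8 lower in treated against aged libraries. Lymphocyte markers summed to 4.06 to 5.32, 18.8 to 23.3 and 13.1 to 15.2 CPM, with 11 of 11 tested higher with age and 2 higher and 1 lower in treated against aged libraries. Ptprc was the largest of them, at 3.07, 14.0 and 6.24 CPM. The median log2 fold change of the 11 in treated against aged libraries was 0.38, so the lower treated sum does not describe the list gene by gene. The 10 hepatocyte markers summed to 131700 to 134500, 130900 to 132600 and 134500 to 139400 CPM. Of these, 2 were higher and 8 lower with age, and 5 higher and 4 lower in treated against aged libraries. Alb was the largest, at 84810, 81970 and 87650 CPM, so this sum does not describe the list gene by gene either. The erythroid markers summed to 274.7 to 282.3, 260.1 to 262.6 and 370.8 to 382.5 CPM, with 4 of 5 tested higher in treated against aged libraries. Plasma cell markers summed to 703 to 717.8, 397.1 to 417.5 and 469.4 to 471.6 CPM, with 2 of 5 tested higher and 2 lower with age. Nearly all of that sum was Xbp1 (427, 145 and 210 CPM) and Sdc1 (283, 248 and 254 CPM). Jchain went the other way with age (0.33, 13.2 and 4.48 CPM), as did Mzb1 (0.052, 0.53 and 0.30 CPM). Cholangiocyte markers summed to 36.1 to 41.3, 45.2 to 46.5 and 49.2 to 51.4 CPM. The summed mitosis genes were at 5.69 to 6.52 CPM in the young, 5.01 to 6.81 CPM in the aged and 2.51 to 2.84 CPM in the treated libraries. The part of these cells in the values of Mki67, Top2a, Ccna2, Ccnd2, Cdk2, Mcm3 and Myc was not tested.

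**Figure D5:**
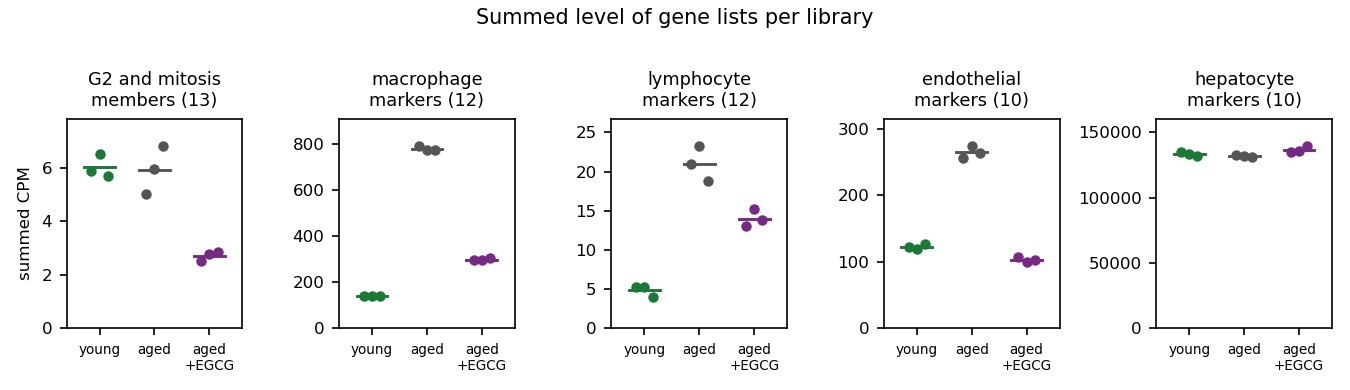
Summed CPM (y axis) of the 13 mitosis genes and of macrophage, lymphocyte, endothelial and hepatocyte markers in each library (points) with the group mean (line). The mitosis sum was 2.51 to 2.84 CPM in treated libraries against 5.01 to 6.81 CPM in aged ones, and the macrophage sum was 295.4 to 304.3 against 774.6 to 792.3 CPM.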

How the data were processed

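The authors deposited raw counts per gene and FPKM values of the same genes for the 9 libraries, per the file headers. RNA was purified with an RNeasy kit and libraries were made with a SMARTER mRNA-seq kit, per the labels' protocols. The builds GRCm38 and mm10 come from the submitters' processing notes, and the sources used here do not state the aligner, the counter with its strand setting, or the annotation. The deposited FPKM equal the count per length and column total within 0.1% for 100% of values, so FPKM carries no TMM scaling. Column totals were 34240500 to 39922044 counts.

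Counts were fitted with edgeR 4.0.16 (R 4.3.3) on all 9 libraries: filterByExpr with a minimum count of 10, TMM, glmQLFit and glmQLFTest with 1 coefficient per group, and Benjamini-Hochberg adjustment over 12747 genes at 0.05. Adjusted p-values without another tool named are from this two-sided test. The common biological coefficient of variation was 5.37%, and TMM factors were 0.911 to 0.92 for young and 1.027 to 1.055 for the other libraries. Ratios of the genes below the filter carry exact 95% intervals. Coordinates are those of GENCODE M21, and the 33 members matched 1 gene each. The steps were tested on simulated data.

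Alternatives were RLE and upper-quartile factors, DESeq2 1.42.0, no filter, at least 1 CPM in 3 libraries, only the 2 groups compared, a replicate block, a length trend removed, limma 3.58.1 on log2(FPKM + 1) and log2(FPKM + 0.1), and leaving out each library. The members and lists were chosen with earlier results of these data known. Members past the threshold at 1 CPM or more in a group were given in every library, and of each related list genes among the smallest p in a comparison with at least 1 CPM in a group mean were named. Replicates differed by more than counting noise (chi-square over degrees of freedom from 3.78 to 4.79), so none was counted as a repeat of another, which does not show that they came from separate animals. Near-identical and overlapping genes could share reads.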

Additional observations from a re-analysis of the deposited data

How the results depend on the processing

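Every change of a member called with age, 8 of 8, kept its direction and its call in each alternative in which the gene was tested, as did 8 of 13 in treated against aged libraries and 6 of 14 in treated against young ones. Sign changes in which neither value was called, counted as unchanged, made up 25, 6 and 11 of 525, 523 and 525 values. Cdk6 turned with the length trend removed, to -0.20 with age and 0.24 in treated against aged libraries, and Cdk4 to -0.035 in the latter, and these lengths are derived from the deposited FPKM. With upper-quartile factors 8 members were higher with age, 7 of the G1 genes were called and 5 higher, and 1 mitosis gene was called, higher; in treated against young libraries 7 members and 4 G1 genes were higher. With log2(FPKM + 1) or log2(FPKM + 0.1), 13 members were called with age, 9 higher, with 8 G1 genes called, 6 higher, and 1 mitosis gene called, higher; 7 members and 5 G1 genes were higher in treated against young libraries, and 1 G1 gene was higher in treated against aged ones with log2(FPKM + 1). FPKM hold no TMM factor, which differed between young and other libraries. With DESeq2 or no filter 1 mitosis gene was called with age, lower, and 5 in each comparison with treated libraries, all 5 lower, more genes being tested. In treated against young libraries 1 G1 gene was higher with no filter and 1 with the length trend removed. Leaving out each library in turn, members called ranged from 8 to 11 with age, 11 to 15 in treated against aged and 13 to 17 in treated against young libraries, members higher from 1 to 3 and 1 to 4 in the last 2 comparisons, G1 genes called from 3 to 6 and higher from 0 to 2 in both, and replication genes higher from 1 to 2 in both. Mitosis genes called ranged from 0 to 1 with age and 3 to 6 in both comparisons with treated libraries, those lower from 0 to 1, 2 to 6 and 3 to 6, and those higher from 0 to 1 in treated against aged libraries; each of these fits filters genes anew. Same-numbered libraries of different groups did not deviate together (correlations from -0.061 to 0.02, 0 of 9 over 0.1), so the numbers do not pair them, and with the replicate block Mki67 was at -2.21 in treated against aged libraries and 8, 13 and 14 members were called. Low counts limit the mitosis genes most.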
